A study of Mus musculus with 16 samples.

Results

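C-type lectin receptors are membrane proteins of myeloid cells that bind sugars, lipids and other ligands from microbes and damaged cells. The activating members signal through a tyrosine motif of their own or through the adaptors FcRγ (Fcer1g) and DAP12 (Tyrobp) to the kinase SYK, and from there through CARD9, BCL10 and MALT1 to NF-kB. Other members carry an inhibitory motif that recruits the phosphatases SHP-1 and SHP-2 and dampens the same route. Microglia, the resident macrophages of the brain, express several of them, and Clec7a is widely used as a marker of microglia that respond to amyloid plaques.

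The 10 genes described here, Clec7a, Clec4n, Clec4e, Clec4d, Clec4a1, Clec4a2, Clec4a3, Clec12a, Clec5a and Clec2d, were chosen by symbol from the 55385 genes of the count table as C-type lectin receptors placed upstream of CARD9. That placement holds as background for Clec7a, Clec4n, Clec4e, Clec4d and Clec5a, but Clec4a2 and Clec12a are inhibitory receptors and Clec2d is a ligand of a natural killer cell receptor. All 10 were present in the table, and all 10 passed the filter on low counts that left 14513 genes for testing.

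Bulk RNA-Seq was performed on CD11b+ cells that were captured on beads from mouse brain at 20 weeks of age, after perfusion and removal of the meninges and choroid plexus. The 16 libraries fell into 4 genotypes with 4 replicates each. WT mice carried neither the transgenes nor the deletion, and Card9-/- mice carried a germline deletion of Card9. 5xFAD mice were Card9+/+ and carried human transgenes with familial Alzheimer's disease mutations, which are expressed in neurons. Card9-/-5xFAD mice carried the deletion and the transgenes together. All lines were crossed with C57BL/6J, and no group received a treatment.

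Library totals ran from 2970148 to 19333325 counts, with a median of 7944265. All 10 microglial markers examined, among them Tmem119, P2ry12 and Cx3cr1, were detected in each genotype, with summed levels of 14979 to 34169 CPM (counts divided by the scaled library size, the usual unit of level). Bead capture by CD11b also takes other myeloid cells, and markers of neutrophils (497 to 6325 CPM), border macrophages (465 to 2016 CPM) and monocytes (93.5 to 433 CPM) were present in each library. In each genotype 1 library stood apart by its lowest microglial marker sum: WT replicate 1, Card9-/- replicate 4, 5xFAD replicate 1 and Card9-/-5xFAD replicate 4. These 4 held 14979 to 18557 CPM of microglial markers against 21195 to 34169 CPM in the other 12, and 2112 to 6325 CPM of neutrophil markers, the highest of their genotype, against 497 to 2415 CPM. Not every marker went with its sum. Of the microglial markers, Itgam was the highest of its genotype in WT replicate 1, Card9-/- replicate 4 and Card9-/-5xFAD replicate 4. Trem2 was the lowest of its genotype in none of the 4. Of the neutrophil markers, S100a8, S100a9 and Retnlg were the highest of their genotype in all 4. Ngp, Ltf and Mmp8 were the lowest in WT replicate 1, Card9-/- replicate 4 and 5xFAD replicate 1. For the transgene and deletion comparisons, levels per kb and shares, values without these 4 are given where they moved the result. Card9 itself did not separate the libraries by label: its level was 13.6 to 51.3 CPM in WT, 16.7 to 34.8 CPM in libraries labelled Card9-/-, 15.6 to 33.5 CPM in 5xFAD and 9.73 to 33.7 CPM in libraries labelled Card9-/-5xFAD. The gene-level count covers all of its exons, so it does not test the deleted stretch, and the deletion is taken here from the labels.

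All 10 genes lie on mouse chromosome 6 (GRCm38, the assembly called mm10). From Clec4a1 at 122921848 to Clec7a at 129472779, 9 of the 10 lie within 6.55 Mb, and Clec5a lies apart at 40574894 to 40585821 on the minus strand. Clec4n (123229843 to 123247021, plus strand), Clec4d (123262111 to 123275265, plus strand) and Clec4e (123281789 to 123289870, minus strand) are direct neighbours. Clec4a1, Clec4a3 and Clec4a2 are close copies of one another, so reads that match more than 1 of them could be split or lost in the counting, and their levels are less certain than those of the other members. The annotation used (GENCODE M21) lists Clec7a at 129461591 to 129472779 on the minus strand as a polymorphic pseudogene, although C57BL/6 mice are known to make the receptor.

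The 250 bases upstream of the RefSeq start (GRCm38.p6) are shown for the member that rose with the transgenes and for 2 members that were lower, since the 3 lie on the same chromosome arm and moved in opposite directions. Capitals mark GGAA on either strand, the core letters bound by ETS factors such as PU.1, the factor that drives many myeloid genes. Each window is printed 5′ to 3′ on the strand of its gene.
Clec7a, chr6:129472780-129473029, minus strand: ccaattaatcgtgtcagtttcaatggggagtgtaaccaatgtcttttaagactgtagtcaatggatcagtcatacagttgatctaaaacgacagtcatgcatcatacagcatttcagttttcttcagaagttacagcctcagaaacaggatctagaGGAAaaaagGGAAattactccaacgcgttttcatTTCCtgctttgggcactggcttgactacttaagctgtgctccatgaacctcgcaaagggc
Clec4e, chr6:123289872-123290121, minus strand: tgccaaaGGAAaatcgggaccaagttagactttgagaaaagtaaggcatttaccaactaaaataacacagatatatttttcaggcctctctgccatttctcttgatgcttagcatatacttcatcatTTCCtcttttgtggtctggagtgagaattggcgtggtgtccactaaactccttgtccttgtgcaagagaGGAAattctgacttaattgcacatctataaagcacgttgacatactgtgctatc
Clec4a1, chr6:122921598-122921847, plus strand: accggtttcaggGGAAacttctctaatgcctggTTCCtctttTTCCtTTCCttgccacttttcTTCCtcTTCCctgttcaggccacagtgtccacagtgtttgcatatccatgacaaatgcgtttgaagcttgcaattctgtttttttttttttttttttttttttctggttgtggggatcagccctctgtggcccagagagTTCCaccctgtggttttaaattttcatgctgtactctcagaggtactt
GGAA occurred 3 times upstream of Clec7a, 3 times upstream of Clec4e and 7 times upstream of Clec4a1. The RefSeq table held 9 of the 10 members, without Clec4n, and all 9 had a GGAA, as did 93.4% of the 32851 promoters of that length. The longer PU.1 form GGAAGT, which contains GGAA, occurred upstream of 2 of 9 members, Clec4d and Clec4a2, against 19.7% of all promoters. The C/EBP form TTNNGNAA occurred in 6 of 9 against 36.8% and the AP-1 form TGANTCA in 1 of 9 (Clec12a) against 6.75%. The E-box CACGTG, present in 6.02% of promoters, was in none of the 9 windows. Both strands were searched, and a match describes the letters only.

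To examine how the receptors responded to amyloid pathology, 5xFAD was compared with WT and Card9-/-5xFAD with Card9-/-. Clec7a was higher by about an order of magnitude in both, and no other member passed a false discovery rate (FDR) of 0.1 in edgeR's quasi-likelihood test, adjusted over all 14513 genes. The call for 1 of 10 members stood against 2.09% of all tested genes in 5xFAD against WT (1.57% higher) and 1.97% in Card9-/-5xFAD against Card9-/- (1.49% higher). The other members leaned the other way. In 5xFAD against WT only Clec7a and Clec5a had a positive log2 fold change, and the median over the 10 was -0.55 beside -0.15 over all tested genes. The same 2 genes were positive in Card9-/-5xFAD against Card9-/-, with a median of -0.35 beside -0.15, and Clec4a3, at -0.01, was at 0.03 when scaled by DESeq2's size factors. Clec4d and Clec2d were also positive in 5xFAD against WT, and Clec4d in Card9-/-5xFAD against Card9-/-, without the 4 libraries that stood apart.

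Clec7a encodes Dectin-1, the receptor for fungal β-glucan, which carries its own activating motif. Its level in replicates 1 to 4 was 53.7, 82.5, 92.3 and 58.9 CPM in WT and 60.0, 58.3, 88.8 and 45.8 CPM in Card9-/-. It was 592, 883, 852 and 653 CPM in 5xFAD and 857, 756, 614 and 291 CPM in Card9-/-5xFAD. Every library with the transgenes lay above every library without them, and the lowest of the 8, Card9-/-5xFAD replicate 4, was 1 of the libraries that stood apart. The level rose 10.4-fold in 5xFAD against WT (log2 fold change 3.37, SE 0.37, edgeR FDR 0.000101), where it ranked 12th of 14513 genes by p. It rose 9.94-fold in Card9-/-5xFAD against Card9-/- (log2 fold change 3.31, SE 0.37, edgeR FDR 0.000136), ranking 11th. Groups without overlap were found for 4.35% of all tested genes in the higher direction in 5xFAD against WT and 3.53% in Card9-/-5xFAD against Card9-/-. Without the 4 libraries that stood apart the log2 fold changes were 3.39 and 3.45. Because RNA was taken from sorted cells in bulk, more cells with the gene and more RNA per cell cannot be told apart.

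**Figure D1:**
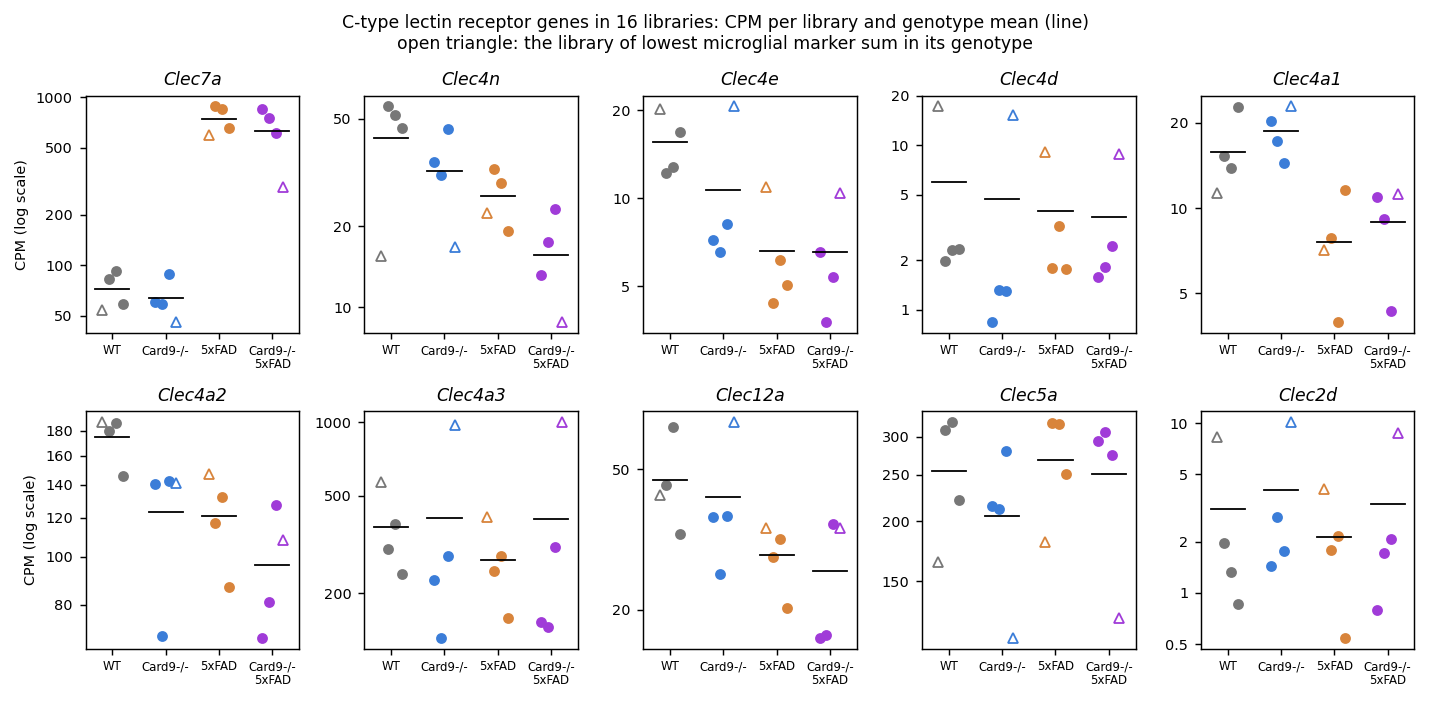
Level of each of the 10 receptor genes in CPM (log axis, a separate scale per panel) in the 16 libraries, with the 4 genotypes along the x axis; points are libraries, lines are genotype means, and open triangles mark the library with the lowest microglial marker sum in its genotype. Clec7a is at 291 to 883 CPM in the libraries with the transgenes and at 45.8 to 92.3 CPM in those without, while the triangles are the highest points of their genotype for Clec4e, Clec4d, Clec4a3 and Clec2d.

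The 3 receptors that couple to FcRγ lie side by side on the chromosome and had negative log2 fold changes with the transgenes, none of which passed the threshold. Clec4n encodes Dectin-2, which binds fungal mannans. It was at 15.5, 55.6, 51.8 and 46.3 CPM in WT and at 34.6, 30.9, 45.7 and 16.7 CPM in Card9-/- (replicates 1 to 4). It was at 22.4, 32.6, 28.8 and 19.2 CPM in 5xFAD and at 13.1, 17.5, 23.1 and 8.81 CPM in Card9-/-5xFAD. The groups overlapped, with the lowest value of WT, Card9-/- and Card9-/-5xFAD each in the library that stood apart. The log2 fold change was -0.72 (SE 0.40, edgeR FDR 0.550) in 5xFAD against WT and -1.03 (SE 0.40, edgeR FDR 0.285) in Card9-/-5xFAD against Card9-/-. Without the 4 libraries that stood apart, a setting chosen after seeing the data, it passed the threshold in both, at -0.90 (edgeR FDR 0.0861) and -1.03 (edgeR FDR 0.0372), when 7.97% and 16.7% of all genes did (2.98% and 6.27% in the lower direction).

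Clec4e encodes Mincle, which binds mycobacterial glycolipid and a protein released from dead cells. Its level was 20.2, 12.2, 12.8 and 16.9 CPM in WT, all above the 10.9, 4.39, 6.12 and 5.04 CPM of 5xFAD. Groups that did not overlap in the lower direction made up 3.69% of all tested genes in this comparison. In Card9-/- it was at 7.21, 6.54, 8.18 and 20.6 CPM and in Card9-/-5xFAD at 6.51, 3.77, 5.39 and 10.4 CPM, and these groups overlapped. The log2 fold change was -1.23 (SE 0.43, edgeR FDR 0.246) in 5xFAD against WT and -0.70 (SE 0.43, edgeR FDR 0.541) in Card9-/-5xFAD against Card9-/-. Without the 4 libraries that stood apart these were -1.40 (edgeR FDR 0.0146) and -0.45 (edgeR FDR 0.315). In each genotype the library that stood apart held the highest Clec4e level and the highest neutrophil marker sum, mainly from S100a8, S100a9 and Retnlg. The part of that signal in the Clec4e level was not tested.

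Clec4d encodes MCL, the partner of Mincle. It was at 1.97 to 2.35 CPM in 3 WT libraries and at 17.3 CPM in WT replicate 1, and the other genotypes had the same form, with 0.841 to 1.32 CPM against 15.4 CPM in Card9-/-, 1.77 to 3.24 CPM against 9.10 CPM in 5xFAD and 1.58 to 2.43 CPM against 8.81 CPM in Card9-/-5xFAD. The high value was always that of the library that stood apart. The counts behind these levels were 7 to 98 per library. The SE of its log2 fold change was 0.98 in 5xFAD against WT and 1.02 in Card9-/-5xFAD against Card9-/-, so a 2-fold difference in either direction lay within the 95% interval (0.161 to 2.84-fold and 0.177 to 3.55-fold). Its log2 fold changes were 0.05 (SE 0.37, edgeR FDR 0.951) and 0.72 (SE 0.38, edgeR FDR 0.239) without the 4 libraries that stood apart.

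Clec5a, also called MDL-1, signals through the adaptor DAP12. Its mean level was 255 ± 74.6 CPM (SD, n = 4) in WT, 205 ± 68.3 CPM in Card9-/-, 268 ± 66.3 CPM in 5xFAD and 251 ± 84.3 CPM in Card9-/-5xFAD. The groups overlapped in each comparison. The log2 fold change with the transgenes was 0.07 (95% interval -0.67 to 0.82) on the Card9+/+ background and 0.29 (-0.46 to 1.03) on the Card9-/- background.

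The Clec4a genes and Clec12a include the inhibitory receptors of the set. Clec4a1, a member of the DCIR group, was at 11.3, 15.2, 13.9 and 22.8 CPM in WT and at 20.3, 17.3, 14.5 and 22.9 CPM in Card9-/-. It was at 7.13, 7.81, 3.96 and 11.6 CPM in 5xFAD and at 10.95, 9.13, 4.34 and 11.2 CPM in Card9-/-5xFAD. WT and 5xFAD overlapped at 1 library each, and every Card9-/-5xFAD library lay below every Card9-/- library, as in 3.48% of all tested genes. The log2 fold change was -1.05 (SE 0.36, edgeR FDR 0.240) in 5xFAD against WT and -1.07 (SE 0.36, edgeR FDR 0.205) in Card9-/-5xFAD against Card9-/-. Removing the 4 libraries that stood apart left -1.11 and -1.04.

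Clec4a2 encodes DCIR, with an inhibitory motif. It averaged 175 ± 19.6 CPM (SD, n = 4) in WT, 123 ± 35.9 CPM in Card9-/-, 121 ± 25.6 CPM in 5xFAD and 96.4 ± 26.4 CPM in Card9-/-5xFAD. With the transgenes its log2 fold change was -0.53 (SE 0.29, edgeR FDR 0.533) and -0.36 (SE 0.29, edgeR FDR 0.675). Clec12a, or MICL, an inhibitory receptor for uric acid crystals, averaged 46.5 ± 14.0 CPM in WT, 41.8 ± 18.4 CPM in Card9-/-, 28.6 ± 6.03 CPM in 5xFAD and 25.7 ± 10.2 CPM in Card9-/-5xFAD. Its log2 fold change was -0.70 in both comparisons (SE 0.35, edgeR FDR 0.494 and 0.445). Neither gene passed the threshold, although both had the same sign on both Card9 backgrounds.

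Clec4a3 is another DCIR gene. Its level was 569, 304, 384 and 240 CPM in WT, 228, 132, 283 and 978 CPM in Card9-/-, 410, 246, 285 and 159 CPM in 5xFAD and 153, 147, 310 and 1000 CPM in Card9-/-5xFAD. The 978 and 1000 CPM belonged to Card9-/- replicate 4 and Card9-/-5xFAD replicate 4, which stood apart. The log2 fold change was -0.45 (SE 0.65) in 5xFAD against WT and -0.01 (SE 0.65) in Card9-/-5xFAD against Card9-/-, and without the 4 libraries that stood apart it was -0.39 (SE 0.36) and -0.05 (SE 0.36). Clec2d, the ligand of an inhibitory receptor on natural killer cells, was near the limit of detection, with 4 to 68 counts and 0.545 to 10.1 CPM per library. Its log2 fold changes of -0.50 and -0.31 had SEs of 0.88 and 0.89, and were 0.11 (SE 0.56) and -0.43 (SE 0.52) without those 4 libraries.

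**Figure D2:**
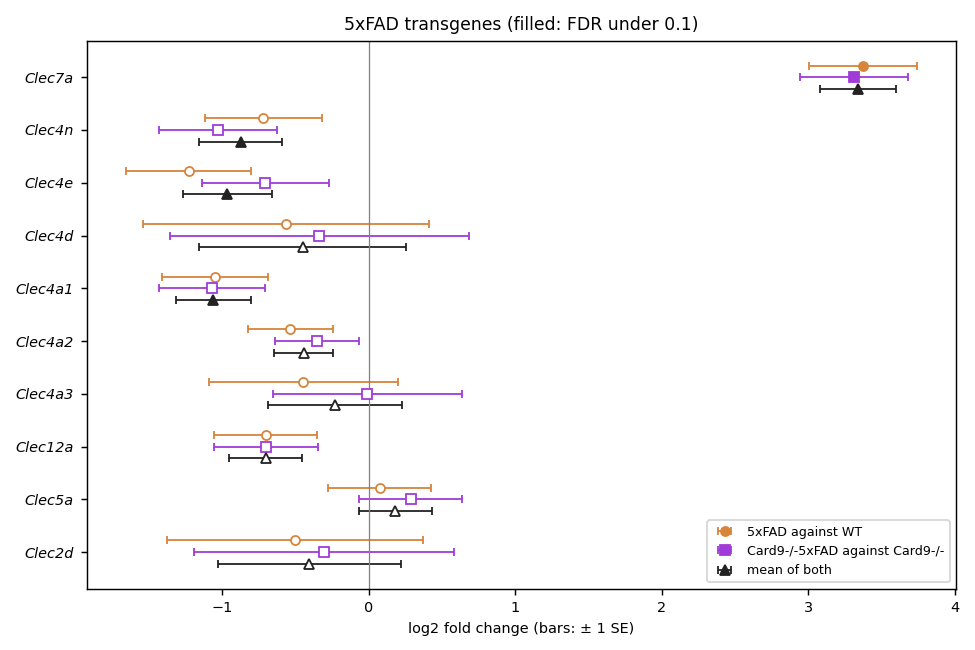
Log2 fold change of each receptor gene with the 5xFAD transgenes (x axis, bars ± 1 SE) on the Card9+/+ background (circles), on the Card9-/- background (squares) and as the mean of both (triangles); filled symbols passed an FDR of 0.1. Clec7a sits near 3.3 in all 3, and Clec4n, Clec4e and Clec4a1 are filled, to the left of 0, in the mean of both.

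The transgene response could be estimated with 8 libraries on each side by taking the mean of both comparisons from the same fit, a contrast added after the data were seen. In this mean 11.3% of all tested genes passed the threshold, 5.62% higher and 5.73% lower, and 4 of the 10 members did. Clec7a rose 10.1-fold (log2 fold change 3.34, SE 0.26, edgeR FDR 7.92e-07). Clec4a1 fell by 1.06 on the log2 scale (SE 0.26, edgeR FDR 0.0208), Clec4e fell by 0.97 (SE 0.30, edgeR FDR 0.0687) and Clec4n fell by 0.87 (SE 0.28, edgeR FDR 0.0763). Clec12a missed the threshold narrowly at -0.70 (SE 0.25, edgeR FDR 0.104) and Clec4a2 had -0.44 (SE 0.20, edgeR FDR 0.202). The levels of Clec4n, Clec4e and Clec4a1 overlapped between libraries with and without the transgenes, and those of Clec7a did not, as in 1.19% of genes in the higher direction.

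These 3 lower calls were not equally firm. The Clec4a1 call held on leaving out any 1 library, at an edgeR FDR of 0.0115 to 0.0559. The Clec4e call was lost on leaving out any of 7 libraries, WT replicate 4, 5xFAD replicates 2, 3 and 4 and Card9-/-5xFAD replicates 1, 2 and 3, at an edgeR FDR of up to 0.143. The Clec4n call was lost on leaving out any of 13 libraries, all but Card9-/- replicate 4, WT replicate 1 and Card9-/-5xFAD replicate 3, at an edgeR FDR of up to 0.252. Without the 4 libraries that stood apart all 3 passed, with log2 fold changes of -1.08 for Clec4a1, -0.92 for Clec4e and -0.96 for Clec4n. In that fit Clec12a passed as well, at -0.65 (SE 0.24, edgeR FDR 0.0659). There 34.5% of all genes were called, 17.6% higher and 16.9% lower.

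Some markers of other CD11b+ cells were also lower. In the mean of both comparisons 5.73% of all tested genes were called lower. So were 4 of 9 border macrophage markers (Mrc1, Cd163, Lyve1 and F13a1) and 4 of 7 dendritic cell markers (Zbtb46, Ccr7, Itgae and Ccl22). Lower calls also went to 2 of 8 monocyte markers, among them Ccr2, and 3 of 9 neutrophil markers (Ly6g, Cxcr2 and Mmp8). The summed border macrophage level was 1257 to 1813 CPM in WT and 1111 to 2016 CPM in Card9-/-, against 685 to 943 CPM in 5xFAD and 465 to 1882 CPM in Card9-/-5xFAD. The summed dendritic level was 74.5 to 249 CPM in WT and 86.4 to 279 CPM in Card9-/-, against 70.7 to 137 CPM in 5xFAD and 64.5 to 138 CPM in Card9-/-5xFAD. The summed monocyte level was 172 to 433 CPM in WT, 158 to 287 CPM in Card9-/-, 118 to 294 CPM in 5xFAD and 93.5 to 233 CPM in Card9-/-5xFAD. The summed neutrophil level was 1109 to 3629 CPM in WT, 1154 to 6325 CPM in Card9-/-, 778 to 2112 CPM in 5xFAD and 497 to 5991 CPM in Card9-/-5xFAD. Each marker of these lists had counts in each genotype. Their part in the lower levels of Clec4n, Clec4e and Clec4a1 was not tested.

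To ask whether CARD9 altered receptor expression, libraries labelled Card9-/- were compared with WT and libraries labelled Card9-/-5xFAD with 5xFAD. No member passed the threshold in either comparison in edgeR or in DESeq2, and none had an unadjusted edgeR p under 0.05. No gene of the 14513 passed the threshold in edgeR in either comparison, and 4.11% and 2.52% had an unadjusted p under 0.05. Clec7a differed by a log2 fold change of -0.18 (95% interval -0.90 to 0.53) in Card9-/- against WT and by -0.24 (-0.95 to 0.47) in Card9-/-5xFAD against 5xFAD. The difference between the transgene responses on both Card9 backgrounds was -0.06 for Clec7a (95% interval -1.07 to 0.95). With 4 libraries per group, responses that differed by 0.477-fold to 1.93-fold thus lay within the interval, which is not a limit of detection. No member passed the threshold for this difference in edgeR or DESeq2 and none had an unadjusted edgeR p under 0.05, and 0.537% of all genes had one.

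The member with the lowest p was Clec4a2 in the first of these comparisons (unadjusted p 0.0973) and Clec4n in the second (unadjusted p 0.0957). Clec4n had a log2 fold change of -0.40 (95% interval -1.24 to 0.44) in Card9-/- against WT and -0.71 (-1.56 to 0.14) in Card9-/-5xFAD against 5xFAD. Clec4a2 was at 146 to 187 CPM in the 4 WT libraries and at 69.4 to 142 CPM in the 4 Card9-/- libraries, without overlap, as in 1.60% of all genes in the lower direction. Its log2 fold change was -0.50 (95% interval -1.11 to 0.10) there and -0.33 (-0.93 to 0.28) in Card9-/-5xFAD against 5xFAD. Averaged over both, a contrast added after the data were seen, Clec4n had -0.56 (SE 0.28, edgeR FDR 0.565) and Clec4a2 -0.42 (SE 0.20, edgeR FDR 0.550), and no member was among the 0.0276% of genes called.

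Leaving out the 4 libraries that stood apart again gave no call for a member in the comparisons for the deletion, and 0.0209% of all genes were called in their mean. Clec4e then had a log2 fold change of -0.93 in Card9-/- against WT (SE 0.27, unadjusted p 0.00419, edgeR FDR 0.587), with 6.54 to 8.18 CPM in the 3 remaining Card9-/- libraries and 12.2 to 16.9 CPM in the 3 remaining WT libraries. In Card9-/-5xFAD against 5xFAD it had 0.01 (SE 0.29). Clec4d had -0.89 (SE 0.37, edgeR FDR 0.587) in the first of these comparisons and -0.23 (SE 0.38) in the second. Clec4n had -0.60 (SE 0.28, unadjusted edgeR p 0.0484, edgeR FDR 0.884) in the second. In their mean it had -0.53 (SE 0.19, unadjusted edgeR p 0.0157, edgeR FDR 0.358). The difference between transgene responses for Clec4e was 0.94 (SE 0.39, unadjusted edgeR p 0.0320, edgeR FDR 0.99987). With all 16 libraries that difference was 0.52 (SE 0.60).

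**Figure D3:**
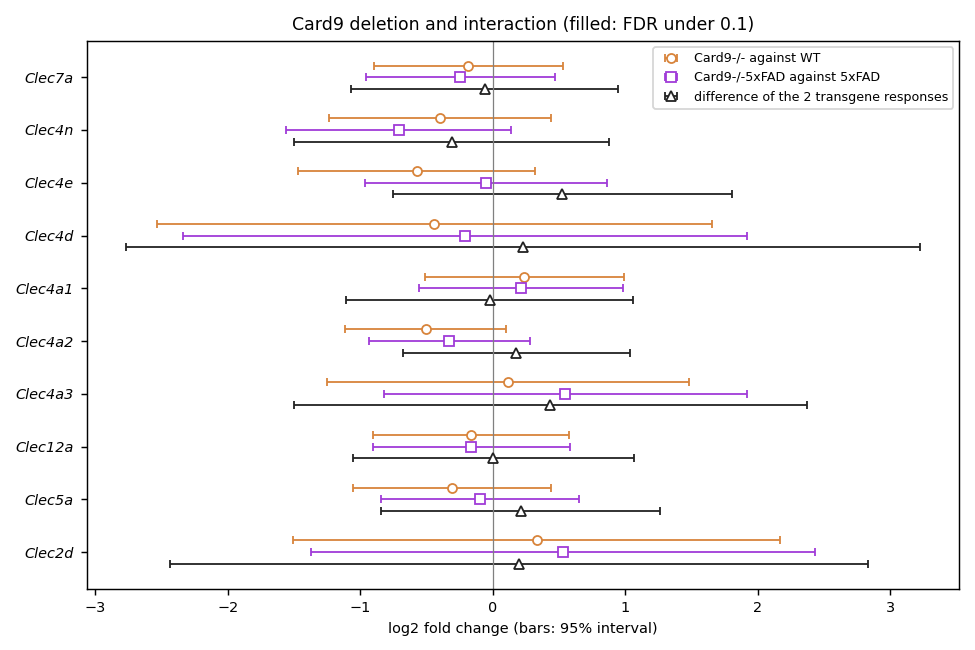
Log2 fold change of each receptor gene (x axis, bars 95% interval) for Card9-/- against WT (circles), Card9-/-5xFAD against 5xFAD (squares) and the difference between the transgene responses on both backgrounds (triangles). All symbols are open, since none passed an FDR of 0.1, and every interval includes 0; the widest are those of Clec4d and Clec2d.

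Levels were set against each other per kilobase of all annotated exons of a gene. This adjusts for length only in part, since the transcripts expressed may be shorter. In WT, Clec4a3 was the most abundant member at 282 ± 108 CPM per kb (SD, n = 4), followed by Clec5a at 66.3 ± 19.4, Clec4a2 at 59.8 ± 6.69, Clec4n at 29.8 ± 12.9 and Clec7a at 27.2 ± 7.02 CPM per kb. Clec4a1 was at 10.1 ± 3.17 and Clec12a at 8.42 ± 2.54 CPM per kb, and Clec4d, Clec4e and Clec2d lay at 2.56 to 3.74 CPM per kb on average. Neighbours from Clec5a to Clec4a2, from Clec4n to Clec7a, from Clec4a1 to Clec12a and among the lowest 3 differed by less than their SDs. Clec7a thus ranked 5th in WT and 4th in Card9-/-, and with the transgenes it ranked 1st in 5xFAD, at 282 ± 54.6 CPM per kb, and 2nd in Card9-/-5xFAD, at 239 ± 93.4 CPM per kb behind Clec4a3 at 303 ± 306 CPM per kb. The difference between the last 2 was within their SDs, and the order rested on Card9-/-5xFAD replicate 4, which stood apart. Without the libraries that stood apart Clec7a ranked 1st in Card9-/-5xFAD too, at 281 ± 46.3 CPM per kb (SD, n = 3) against 153 ± 69.8 CPM per kb for Clec4a3, and its rank in the other genotypes was as before. Clec4a3 was then at 233 ± 54.5 CPM per kb in WT, and Clec2d, Clec4d and Clec4e at 1.14 to 2.81 CPM per kb on average.

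As a share of the summed level per kb of the 10 genes, Clec7a made up 3.37% to 6.73% in WT and 1.94% to 9.12% in Card9-/- libraries. The share was 33.6% to 50.6% in 5xFAD and 11.4% to 57.7% in Card9-/-5xFAD. Clec4a3 went from 48.9% to 71.1% in WT to 24.4% to 46.2% in 5xFAD, without overlap, and from 41.0% to 82.5% in Card9-/- to 20.5% to 77.8% in Card9-/-5xFAD, with overlap. That overlap came from replicate 4 of each, the libraries that stood apart, and without them the shares of Clec4a3 were 41.0% to 50.7% in Card9-/- and 20.5% to 38.2% in Card9-/-5xFAD, without overlap. The share of Clec7a in the remaining libraries was 46.2% to 50.6% in 5xFAD and 38.1% to 57.7% in Card9-/-5xFAD. The sum of the other 9 genes was 466 ± 100.2 CPM per kb (SD, n = 4) in WT, 451 ± 291 in Card9-/-, 352 ± 84.1 in 5xFAD and 429 ± 293 CPM per kb in Card9-/-5xFAD, within 1 SD of each other except for WT and 5xFAD. Without the libraries that stood apart it was 427 ± 76.5 CPM per kb (SD, n = 3) in WT, 309.9 ± 84.0 in Card9-/-, 321 ± 70.5 in 5xFAD and 286 ± 80.0 CPM per kb in Card9-/-5xFAD. Shares within a library fall for the other genes when 1 gene rises, so they describe the make-up of the set and not a change of each gene.

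Ratios of counts within a library do not depend on the scaling. The ratio of Clec7a to Clec4n, the receptors for β-glucan and mannan, was 1.27 to 3.47 in WT and 1.74 to 2.75 in Card9-/-, against 26.4 to 34.0 in 5xFAD and 26.5 to 65.3 in Card9-/-5xFAD. For Clec7a and Clec5a it was 0.266 to 0.326 in WT, 0.274 to 0.400 in Card9-/-, 2.60 to 3.27 in 5xFAD and 2.23 to 2.91 in Card9-/-5xFAD. The ratio to Clec5a was narrow within each genotype, including the libraries that stood apart, where both genes were low.

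**Figure D4:**
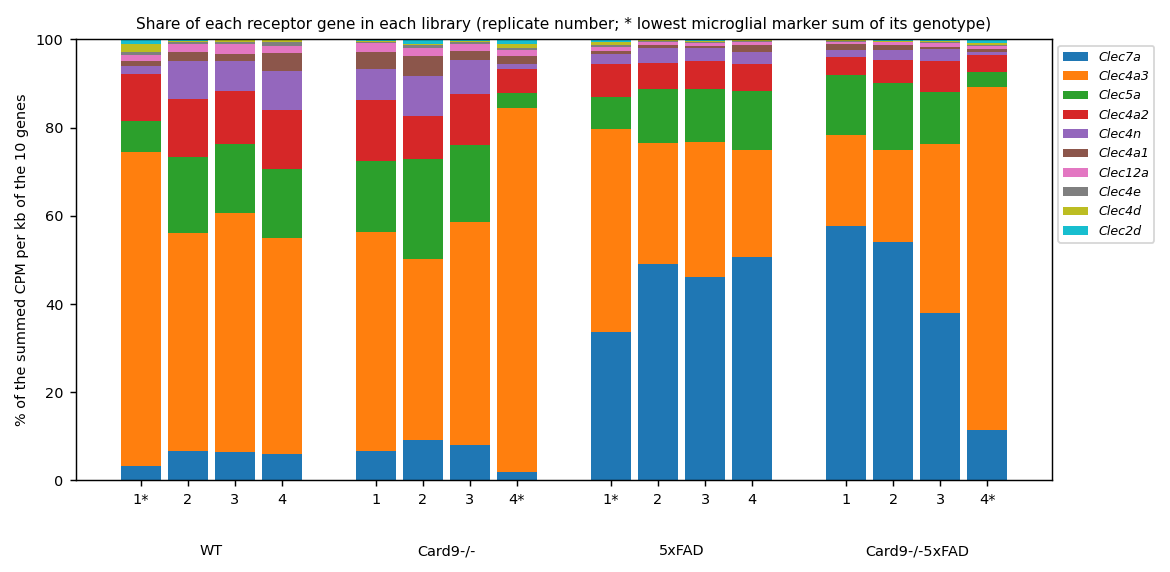
Share of each receptor gene in the summed CPM per kb of the 10 genes (y axis, %), stacked, for each of the 16 libraries (x axis, replicate number within genotype; an asterisk marks the library of lowest microglial marker sum). Clec7a fills 33.6% to 50.6% of the bar in 5xFAD against 3.37% to 6.73% in WT, and Clec4a3 fills most of the bar in Card9-/- replicate 4 and Card9-/-5xFAD replicate 4.

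The members did not all move the same way in the libraries that stood apart. In all 4, Clec4e, Clec4d, Clec4a3 and Clec2d were the highest of their genotype and Clec7a and Clec5a the lowest. Over all tested genes 20% were highest in all 4 and 16.1% lowest in all 4, so the share of members that were lowest was near that of all genes. Against the mean of the other 3 libraries of the genotype, the median difference on the log2 CPM scale was 2.46 for Clec4d (1.96 to 3.52), 2.35 for Clec2d (1.48 to 2.46), 1.58 for Clec4a3 (0.88 to 2.39) and 1.03 for Clec4e (0.55 to 1.47). It was -0.54 for Clec7a (-1.34 to -0.41) and -0.90 for Clec5a (-1.21 to -0.70). Clec4n and Card9 were lowest in 3 of the 4, with median differences of -1.04 and -0.996. Clec4a2 lay above the mean of the others in all 4 by a smaller margin, with a median of 0.31 (0.14 to 0.41), and was the highest in 2. Clec4a1 and Clec12a did not keep to 1 side, with medians of 0.21 and 0.51. These libraries were defined by their microglial marker sum and had 2970148 to 7188423 counts. They held the highest neutrophil marker sum of their genotype, mainly from S100a8, S100a9 and Retnlg. The part of these in the levels of the members was not tested.

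**Figure D5:**
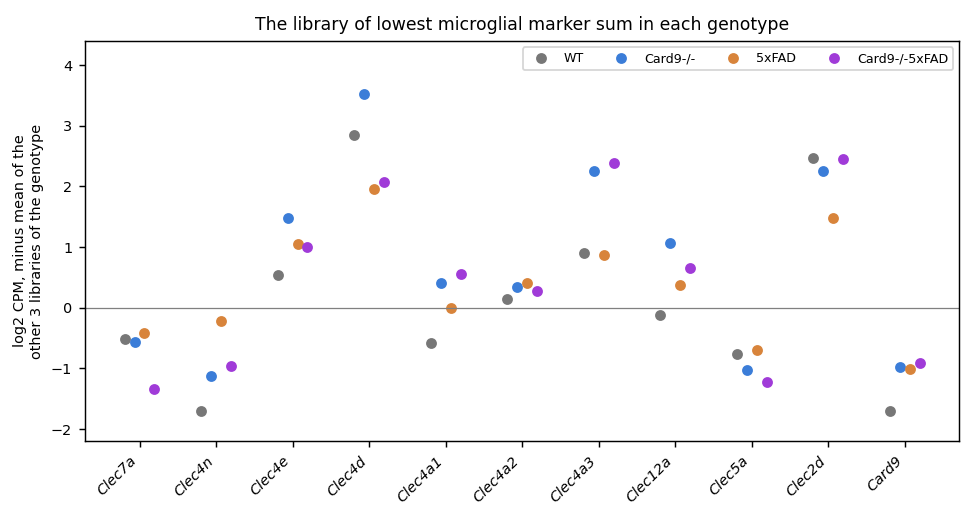
Level of each receptor gene and of Card9 in the library of lowest microglial marker sum of each genotype, as the difference in log2 CPM from the mean of the other 3 libraries of that genotype (y axis; 1 point per genotype). Clec4e, Clec4d, Clec4a3, Clec2d and, more narrowly, Clec4a2 lie above 0 in all 4 genotypes and Clec7a, Clec4n, Clec5a and Card9 below 0.

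The genes whose profile over the 16 libraries was nearest to that of Clec7a, by the root mean square difference of log2 CPM after centring, were Ctse (0.48), Cd200r4 (0.48) and Trpc4 (0.49). Ctse, the protease cathepsin E, was at 30.1 to 76.3 CPM in WT and 25.7 to 35.9 CPM in Card9-/-, against 306 to 788 CPM in 5xFAD and 101 to 529 CPM in Card9-/-5xFAD. Cd200r4, a receptor of the CD200R family, went from 2.46 to 7.72 CPM in WT to 31.7 to 73.2 CPM in 5xFAD. Trpc4, a cation channel, had 0 to 4 counts in libraries without the transgenes and 2 to 19 in those with them. For Clec4d, the other member of largest spread, the nearest were S100a11 (0.32), the transcripts listed as X9430081H08Rik (0.35) and X4933433G15Rik (0.37). S100a11, a calcium-binding protein, was at 366 CPM in WT replicate 1 and 51.2 to 78.0 CPM in the other WT libraries, and at 518 CPM in Card9-/- replicate 4 and 36.2 to 44.3 CPM in the other Card9-/- libraries.

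Around the receptors, the route to NF-kB was read from lists of genes. Of 11 adaptors, kinases and phosphatases next to the receptors none passed the threshold in 5xFAD against WT or in Card9-/-5xFAD against Card9-/- in edgeR, with 1 and 2 at an unadjusted p under 0.05, as were 10.8% and 12.2% of all tested genes. Syk was at 109 ± 32.9 CPM (SD, n = 4) in WT and 76.0 ± 17.3 CPM in 5xFAD, with a log2 fold change of -0.52 (edgeR FDR 0.511). The adaptors had positive values, with 0.88 (edgeR FDR 0.641) for Tyrobp and 0.61 (edgeR FDR 0.765) for Fcer1g in 5xFAD against WT, and both ranged widely, Tyrobp from 1486 to 4577 CPM in WT. In the mean of both comparisons Fgr, a Src-family kinase, was the 1 gene of the 11 called higher, at a log2 fold change of 0.80 (SE 0.21, edgeR FDR 0.0294). In that mean 5.62% of all tested genes were called higher.

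Of 12 genes of the CARD9 complex and its direct partners, 1 was called in 5xFAD against WT, as were 2.09% of all tested genes. This was Vav3, an exchange factor that acts between SYK and CARD9. It fell by 1.86 on the log2 scale (SE 0.44, edgeR FDR 0.0465), from 4.93 to 11.5 CPM in WT to 1.08 to 3.27 CPM in 5xFAD. The groups did not overlap, as in 3.69% of all tested genes in the lower direction. Vav3 had -1.38 (edgeR FDR 0.170) in Card9-/-5xFAD against Card9-/-, where none of the 12 was called. Its level there went from 4.03 to 9.25 CPM in Card9-/- to 1.56 to 3.20 CPM in Card9-/-5xFAD. These groups did not overlap either, as in 3.48% of all tested genes in the lower direction. In the mean of both comparisons 1 of the 12 was called lower (edgeR FDR 0.00482), as were 5.73% of all tested genes. In Card9-/-5xFAD against Card9-/- 1 of the 12 had an unadjusted p under 0.05, as did 12.2% of all tested genes. Bcl10 and Malt1, the partners of CARD9, had -0.15 (edgeR FDR 0.872) and -0.62 (edgeR FDR 0.403) in 5xFAD against WT. Card9 had -0.41 (edgeR FDR 0.788) there and -0.52 (edgeR FDR 0.710) in Card9-/-5xFAD against Card9-/-.

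Among 17 NF-kB subunits and target genes, 1 was called in 5xFAD against WT, as were 2.09% of all tested genes. None was called in Card9-/-5xFAD against Card9-/-, where 2 of the 17 and 12.2% of all tested genes had an unadjusted p under 0.05. The called gene was Ptgs2, the cyclooxygenase of inflammation, which fell by 1.44 on the log2 scale (SE 0.39, edgeR FDR 0.0993), from 2.35 to 5.81 CPM in WT to 0.90 to 2.06 CPM in 5xFAD. In the mean of both comparisons Rel (-0.85, SE 0.20, edgeR FDR 0.0192), Nfkb1 (-0.63, SE 0.19, edgeR FDR 0.0634) and Ptgs2 (-0.90, SE 0.27, edgeR FDR 0.0614) were lower. In that mean 5.73% of all tested genes were called lower. The cytokines Il1b and Tnf had log2 fold changes of 0.04 and 0.16 in that mean and were not called. In the comparisons for the deletion no gene of these 3 lists passed the threshold in edgeR; at an unadjusted p under 0.05 there were none in Card9-/- against WT and 1, among the targets, in Card9-/-5xFAD against 5xFAD.

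Other genes of the C-type lectin superfamily gave a reference for the 10. Of 40 listed, 26 passed the filter on low counts. In 5xFAD against WT, where 2.09% of all tested genes were called, the 1 called of these was Mrc1, the mannose receptor of border macrophages. It fell by 1.20 on the log2 scale (SE 0.28, edgeR FDR 0.0369), and by 1.28 (SE 0.28, edgeR FDR 0.0313) in Card9-/-5xFAD against Card9-/-, where Cd209b fell by 1.48 (SE 0.40, edgeR FDR 0.0946). In that last comparison 1.97% of all tested genes were called. Mrc1 was at 146 to 248 CPM in WT and 57.0 to 93.8 CPM in 5xFAD. The median log2 fold change of the 26 was -0.58 in 5xFAD and -0.62 in Card9-/-5xFAD, each against its own control, beside -0.55 and -0.35 for the 10 members.

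In the mean of both comparisons 12 of the 26 passed, 5 higher and 7 lower, where 5.62% of all tested genes were called higher and 5.73% lower. The 5 were Cd72 (2.38, SE 0.46, edgeR FDR 0.0052), an inhibitory receptor known from B cells, Klrb1b (1.70, SE 0.49, edgeR FDR 0.0510), the natural killer receptor that binds Clec2d, Klrb1a (1.53), Clec1a (1.40) and Mrc2 (0.96). The 7 were Cd209c (-1.94), Mgl2 (-1.31), Clec10a (-1.24), Mrc1 (-1.24), Cd93 (-1.16), Cd209b (-1.14) and Cd209g (-0.76). Clec10a and Mgl2 encode lectins for galactose-type sugars on macrophages and dendritic cells, and Mrc1 is also among the border macrophage markers given above. None of the 26 was called for the deletion in edgeR in either comparison, and 2 had an unadjusted p under 0.05 in Card9-/- against WT and none in Card9-/-5xFAD against 5xFAD.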

How the data were processed

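RNA-Seq was performed by the study on CD11b+ brain cells of 4 genotypes with 4 libraries each. Per the labels and methods, reads were aligned with HISAT2 to mm10, filtered with SAMtools and assigned to genes with HTSeq, and the deposited table holds raw counts per gene, not normalized. Versions, annotation and strand setting are not given in the sources used here. The 10 members, the gene lists and the marker lists were chosen with earlier results of these data known.

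Counts were scaled by the trimmed mean of M values, genes were kept by filterByExpr (minimum count 10), and the 16 libraries entered 1 quasi-likelihood fit (edgeR 4.0.16, R 4.3.3), with Benjamini-Hochberg adjustment over 14513 of 55385 genes and an FDR threshold of 0.1. Standard errors came from the fold change and its F statistic. CPM used scaled library sizes, and CPM per kb the summed exon length of GENCODE M21. Alternatives used DESeq2 1.42.0, sva 3.50.0, other filters, compared groups only, a replicate block and each library left out. The 2 averaged contrasts and the fit without the 4 libraries of lowest microglial marker sum were added after the data were seen. Scripts were tested on simulated data.

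The text names the 10 members, Card9, genes of the pathway and lectin lists past the threshold with up to 4 others of each list, and the 3 genes with profiles nearest to Clec7a and to Clec4d, the other member of largest spread. No library pair agreed within sampling noise, so all 16 were kept. Some named items, marker genes included, are not reported here. The labels number the replicates and do not say that they came from separate mice, so p-values measure the spread between these libraries.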

Additional observations from a re-analysis of the deposited data

Results flagged for a closer look

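In 8 of 40 groups of 4 libraries (10 genes in 4 genotypes), 1 library lay far from the other 3 by Dixon's test at the 95% level, which chance gives in about 1 of 20 groups. Of these, 7 were high values in a library that also had the lowest microglial marker sum of its genotype. Clec4d was at 17.3 CPM in WT replicate 1 (next highest 2.35 CPM), at 15.4 CPM in Card9-/- replicate 4 (1.32 CPM) and at 8.81 CPM in Card9-/-5xFAD replicate 4 (2.43 CPM). Clec2d was at 8.28 CPM in WT replicate 1 (next highest 1.97 CPM), at 10.1 CPM in Card9-/- replicate 4 (2.81 CPM) and at 8.81 CPM in Card9-/-5xFAD replicate 4 (2.09 CPM). Clec4e was at 20.6 CPM in Card9-/- replicate 4, with the next highest at 8.18 CPM.

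The remaining value was low and in another library. Clec4a2 was at 69.4 CPM in Card9-/- replicate 2, the most deeply sequenced library, with the next lowest at 140.5 CPM. Without that library the log2 fold change of Clec4a2 in Card9-/- against WT was -0.31, the smallest of its values with 1 library left out.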

How the results depend on the processing

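The call for Clec7a with the transgenes held in each setting run, with log2 fold changes of 3.25 to 3.59 in 5xFAD against WT and 3.12 to 3.55 in Card9-/-5xFAD against Card9-/- on leaving out 1 library, and the counts of 0 for the Card9 deletion and for the difference between transgene responses stayed at 0. The count of members called moved in the other comparisons, and where no cause is named, the cause was not tested. In 5xFAD against WT it went from 1 to 2 with DESeq2 on the compared groups (Clec4e added), to 4 with 1 surrogate variable (Clec4e, Clec4a1 and Clec12a added) and to 3 without the 4 libraries that stood apart (Clec4n and Clec4e added). In Card9-/-5xFAD against Card9-/- it went from 1 to 2 with DESeq2 on all libraries (Clec4a1 added), to 4 with 1 surrogate variable (Clec4n, Clec4a1 and Clec12a added) and to 2 without those 4 libraries (Clec4n added). In the mean of both it went from 4 to 2 at an FDR threshold of 0.05 and to 2 when genes needed 10 counts in every library, which left 8 members tested, and it was 2 to 5 on leaving out 1 library. Clec12a was added in that mean without the 4 libraries that stood apart.

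Correlations of deviations from the group means were -0.71 to 0.73 over 24 pairs with the same replicate number (median 0.14). They had a median of 0.02 over 72 pairs with different numbers. Within a Card9 background all same-number pairs were positive. They were 0.275 to 0.708 between WT and 5xFAD and 0.128 to 0.734 between Card9-/- and Card9-/-5xFAD. Pairs with different numbers there ran from -0.63 to 0.433 and from -0.66 to 0.627. The labels do not say what the numbers stand for, and the main fit did not use them. Between Card9 backgrounds same-number pairs had both signs, from -0.71 to 0.609. A replicate block took the same effect per number in every genotype, so it did not model the pairing within a background. The influence of that pairing on the calls was thus not tested. The shared block gave 2 calls in each transgene comparison, with Clec4a1 added. It turned Clec4d to 0.00722 in Card9-/-5xFAD against Card9-/-, Clec4a3 to -0.33 in Card9-/- against WT and to -0.13 in the averaged deletion contrast, and the Clec12a difference between responses to -0.0474.

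Other values that changed sign belonged to members without a call. Clec4a3 in Card9-/-5xFAD against Card9-/- was 0.032 with DESeq2's size factors, 0.13 with 10 counts in every library, 0.0273 with DESeq2 on all libraries and 0.036 on the compared groups, and the Clec12a difference between responses was -0.0140 without the filter. With 1 surrogate variable Clec4d was 0.15 in Card9-/-5xFAD against Card9-/-, Clec4a3 was -0.32 in Card9-/- against WT and -0.12 in the averaged deletion contrast, and the Clec2d difference was -0.17. Without the 4 libraries that stood apart, Clec4d was 0.055 and Clec2d 0.11 in 5xFAD against WT, Clec4d was 0.72 in Card9-/-5xFAD against Card9-/- and 0.39 in the mean of both, Clec4a3 was -0.53 in Card9-/- against WT, -0.19 in Card9-/-5xFAD against 5xFAD and -0.36 in their mean, Clec4e was 0.013 in Card9-/-5xFAD against 5xFAD, and the differences between responses were 0.062 for Clec7a, 0.066 for Clec4a1 and -0.54 for Clec2d.

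On leaving out 1 library these ranges crossed 0. In 5xFAD against WT they were -1.37 to 0.83 for Clec4d, -1.02 to 0.61 for Clec2d and -0.087 to 0.27 for Clec5a. In Card9-/-5xFAD against Card9-/- they were -1.14 to 1.5 for Clec4d, -0.98 to 0.90 for Clec4a3 and -1.32 to 0.56 for Clec2d. In the mean of both they were -0.85 to 0.47, -0.71 to 0.23 and -0.91 to 0.15 for the same 3 genes. In Card9-/- against WT they were -2.30 to 0.95 for Clec4d, -0.80 to 0.39 for Clec4a3, -0.56 to 1.44 for Clec2d and -0.50 to 0.047 for Clec12a. In Card9-/-5xFAD against 5xFAD they were -1.03 to 0.59 for Clec4d, -0.43 to 0.80 for Clec4a3, -0.50 to 1.03 for Clec2d, -0.33 to 0.29 for Clec4e, -0.28 to 0.13 for Clec5a and -0.00050 to 0.44 for Clec4a1. In the averaged deletion contrast they were -1.27 to 0.37 for Clec4d, -0.17 to 0.46 for Clec4a3 and -0.087 to 0.98 for Clec2d. The differences between responses ran from -0.25 to 0.18 for Clec7a, -1.16 to 2.06 for Clec4d, -0.54 to 1.34 for Clec4a3, -0.92 to 1.06 for Clec2d, -0.26 to 0.20 for Clec4a1, -0.020 to 0.30 for Clec4a2 and -0.22 to 0.33 for Clec12a.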
